A study of Rattus norvegicus with 21 samples.

Results

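Transcripts of 4 transporters of the renal tubule and of Klotho were examined in the renal cortex of rats. The set was fixed by name, with earlier results of these data known. It holds 5 of the 26404 genes counted in each library: Slc34a1 (ENSRNOG00000015262), Aqp1 (ENSRNOG00000011648), Slc22a6 (ENSRNOG00000018215), Slc22a8 (ENSRNOG00000018086) and Kl (ENSRNOG00000001092). All 5 passed the filter on low counts. Each of the 5 identifiers lay on the chromosome that RefSeq gives for the symbol, and the strand was the same for the 4 genes with a strand in the RefSeq tables.

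The study asked how dietary restriction plus medical therapy (DMT) alters the kidney in a rat model of diabetic kidney disease. Cortex was collected from male rats at 37 weeks of age, and ribosome-depleted total RNA was sequenced. Sprague Dawley (SD) rats were the healthy controls. Zucker Diabetic Sprague Dawley (ZDSD) rats, a strain that develops obesity and diabetes with intact leptin signalling, formed the other groups. SHAM rats were ZDSD rats that received insulin degludec before a sham operation and were then fed freely. DMT-treated rats, called Medical bypass in the labels, were ZDSD rats with the same insulin and sham operation that were then kept on restricted food with fenofibrate, liraglutide, metformin, ramipril and rosuvastatin given together, so diet and the drugs cannot be told apart. Whether SD rats were operated on is not given in the sources used here, so strain, diabetes and surgery cannot be told apart in comparisons with SD rats.

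Each label names its own rat. There were 6 SD, 9 SHAM and 6 DMT-treated rats, of which 19 libraries held 14502127 to 27597901 counts. SHAM rats 343 and 348 had 121511 and 101534 counts, and their counts agreed within sampling error (chi-square divided by its degrees of freedom 1.017, p=0.1949). The lowest such value among 51 other pairs of libraries, thinned to that depth, was 1.064. Both were left out of the comparisons below, which rest on 6 SD, 7 SHAM and 6 DMT-treated rats, and their values are given summed as 1 sample. The labels mark the SD and SHAM libraries, and not the DMT libraries, as re-analyses of samples deposited earlier, so this status cannot be told apart from DMT. Identifiers of other genes were not paired with symbols here, so markers of other kidney cell types and the remaining genes of these pathways were not analysed here. In bulk cortex, fewer cells of a type and less RNA per cell cannot be told apart.

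As background, the proximal tubule reclaims most filtered phosphate, water and organic solutes. Slc34a1 encodes NaPi-IIa, the main sodium-phosphate cotransporter of its brush border, and Aqp1 encodes the water channel aquaporin-1 of the proximal tubule and thin descending limb. Slc22a6 and Slc22a8 encode OAT1 and OAT3, basolateral transporters that take organic anions, including many drugs and uraemic solutes, from blood into proximal tubule cells in exchange for dicarboxylates. Kl encodes Klotho, which is most abundant in the distal convoluted tubule, serves as the co-receptor of the phosphate-lowering hormone FGF23, and is also shed into the circulation. FGF23 and parathyroid hormone lower the amount of NaPi-IIa at the brush border.

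Upstream sequences are shown for 3 genes, Slc34a1 and Aqp1 as the most abundant of the set and Kl as a gene that differed between DMT-treated and SHAM rats. Each is the 250 bases before the RefSeq start on GRCr8, printed 5′ to 3′ on the strand of the gene. The windows are chr17:9238984-9239233 on the minus strand for Slc34a1, chr4:85812534-85812783 on the plus strand for Aqp1 and chr12:5325753-5326002 on the plus strand for Kl. Capitals mark matches on either strand to GTTAAT, a core of the HNF1 motif, CAAAGTCC, a core of the HNF4 motif, or TATAAA, the TATA box.
Slc34a1: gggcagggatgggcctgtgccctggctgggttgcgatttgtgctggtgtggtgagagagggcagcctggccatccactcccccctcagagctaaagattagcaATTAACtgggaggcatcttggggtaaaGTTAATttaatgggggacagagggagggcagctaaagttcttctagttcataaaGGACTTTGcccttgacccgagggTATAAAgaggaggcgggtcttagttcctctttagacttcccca
Aqp1: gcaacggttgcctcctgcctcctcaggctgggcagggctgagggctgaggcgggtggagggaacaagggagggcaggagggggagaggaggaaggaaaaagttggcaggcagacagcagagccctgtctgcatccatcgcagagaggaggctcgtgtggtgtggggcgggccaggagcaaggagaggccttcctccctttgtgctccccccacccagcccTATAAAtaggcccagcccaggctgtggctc
Kl: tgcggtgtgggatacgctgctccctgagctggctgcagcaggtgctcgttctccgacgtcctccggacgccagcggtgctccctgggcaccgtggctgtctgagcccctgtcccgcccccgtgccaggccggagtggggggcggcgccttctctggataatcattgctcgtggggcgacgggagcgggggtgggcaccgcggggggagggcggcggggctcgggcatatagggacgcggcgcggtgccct

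The Slc34a1 window held GTTAAT and its complement ATTAAC, the HNF4 core as GGACTTTG, and TATAAA. The Aqp1 window held TATAAA alone, and the Kl window held none of the 3. The RefSeq window listed for Slc22a8 lies inside the span of that gene rather than before it and is not shown. The marked letters do not overlap one another. Among the 33469 rat promoter windows of this length in the same RefSeq table, 6.45% held the HNF1 core, 1.14% the HNF4 core and 12.9% TATAAA. HNF1 and HNF4 factors are regulators of proximal tubule genes, and a match of letters is a description, not evidence of binding. The Kl window was 73.2% G and C, compared with a mean of 52.2% over all windows and 53.2% in that of Slc34a1.

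Per kilobase of counted exon length, Slc34a1 had the highest mean level of the 5 genes over the 19 rats (1485 CPM per kb, CPM being counts per 1000000 after TMM normalization), which placed it 17th among 14664 genes tested. Aqp1 followed at 1023 CPM per kb (rank 31), then Slc22a6 at 467 CPM per kb (rank 135), Slc22a8 at 222 CPM per kb (rank 387) and Kl at 211 CPM per kb (rank 427). Slc22a6 was above Slc22a8 per kilobase, though not in CPM, in every rat of the 3 groups, and Aqp1 was above Slc22a6 in every rat. Slc34a1 was above Aqp1 per kilobase in every SD and SHAM rat and in 5 of 6 DMT-treated rats, the exception being DMT rat 347. The order of Slc22a8 and Kl changed with the group. Slc22a8 was above Kl per kilobase in 3 of 6 SD rats, in 0 of 7 SHAM rats and in 6 of 6 DMT-treated rats. The 5 genes together took 0.906% to 1.09% of all counts in SD rats, 0.711% to 0.945% in SHAM rats and 0.764% to 0.801% in DMT-treated rats.

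In SHAM rats relative to SD rats, Aqp1 and Slc22a6 were called lower, and no gene of the set was called higher. A gene was called changed at a Benjamini-Hochberg adjusted p under 0.05 and a fold-change of at least 1.3 in edgeR's quasi-likelihood test. By this rule 7.95% of the genes tested were lower and 10.3% were higher in SHAM than in SD rats. In DMT-treated rats relative to SHAM rats, Slc22a8 rose and Kl fell, against 4.12% of all genes called higher and 7.36% called lower. In DMT-treated rats relative to SD rats, 4 of the 5 genes fell (Slc34a1, Aqp1, Slc22a6 and Kl), against 10.2% of all genes called lower and 8.01% called higher. The median log2 fold-change of the 5 genes was -0.35 in SHAM vs SD, -0.13 in DMT vs SHAM and -0.48 in DMT vs SD, compared with 0.0056, -0.0040 and 0.0078 over all genes tested. The 3 comparisons share groups and are not independent of one another.

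**Figure D1:**
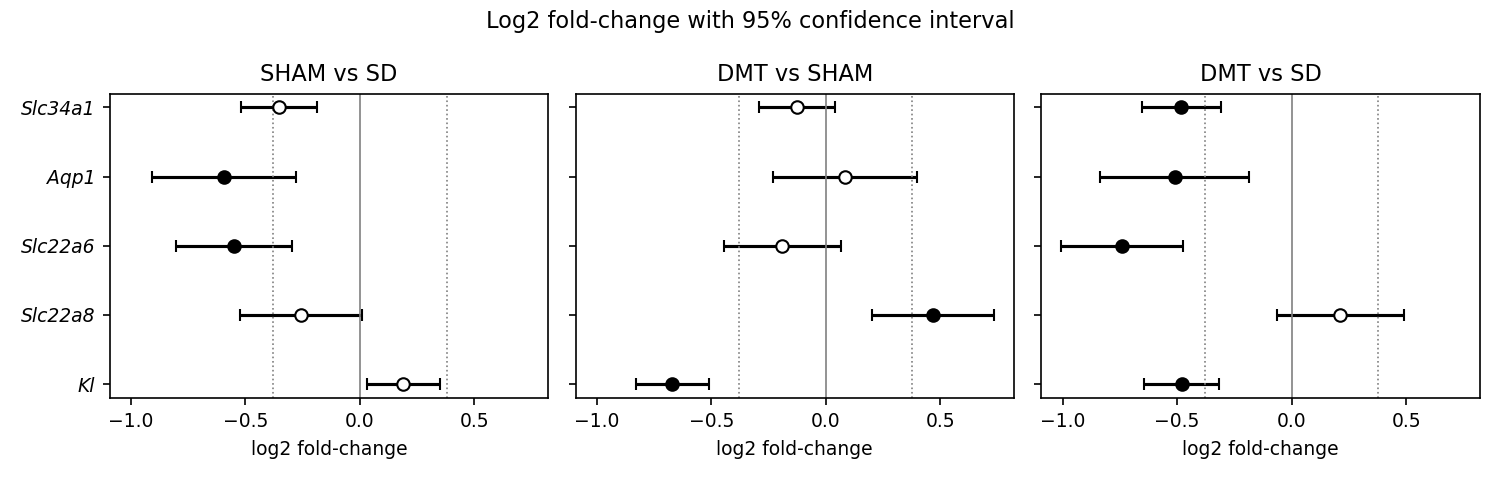
Log2 fold-change of each gene (x axis) in each comparison (panels), with the 95% confidence interval from edgeR's quasi-likelihood fit to 19 rats. Filled circles are genes called changed, open circles genes not called, and dotted lines mark a fold-change of 1.3 in either direction. Slc22a8 lies farthest to the right in DMT vs SHAM at 0.47, and Kl lies farthest to the left there at -0.67.

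Slc34a1 (17:11856946-11872100 on the minus strand of rn5, 13 exon intervals counted) had its highest levels in SD rats. SD rats had 3908 to 4974 CPM (median 4259), SHAM rats 2795 to 3824 CPM (median 3494) and DMT-treated rats 2780 to 3256 CPM (median 3178). Every SHAM rat and every DMT-treated rat lay below every SD rat, whereas SHAM and DMT-treated rats overlapped. Of all genes tested, 8.61% did not overlap in CPM between SHAM and SD rats, and 16.9% between DMT-treated and SD rats. The mean ± SD of the 6 SD rats was 4361 ± 375 CPM, that of the 7 SHAM rats 3412 ± 341 CPM and that of the 6 DMT-treated rats 3124 ± 179 CPM. In DMT vs SD, Slc34a1 fell by 0.48 on the log2 scale (SE 0.082, edgeR adjusted p=0.000203). In SHAM vs SD the log2 fold-change was -0.35 (SE 0.079, edgeR adjusted p=0.00223), a ratio of 0.782 that stopped short of the 1.3-fold rule. With libraries scaled to their totals alone in place of TMM, which raised the median of all genes in SHAM vs SD by 0.13, it was -0.23 (edgeR adjusted p=0.0123). It passed the 1.3-fold rule without SD rat 352, and also without SHAM rat 315, at -0.38 in each case. DMT vs SHAM gave -0.13, with a 95% confidence interval of -0.29 to 0.04 (edgeR adjusted p=0.272).

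**Figure D2:**
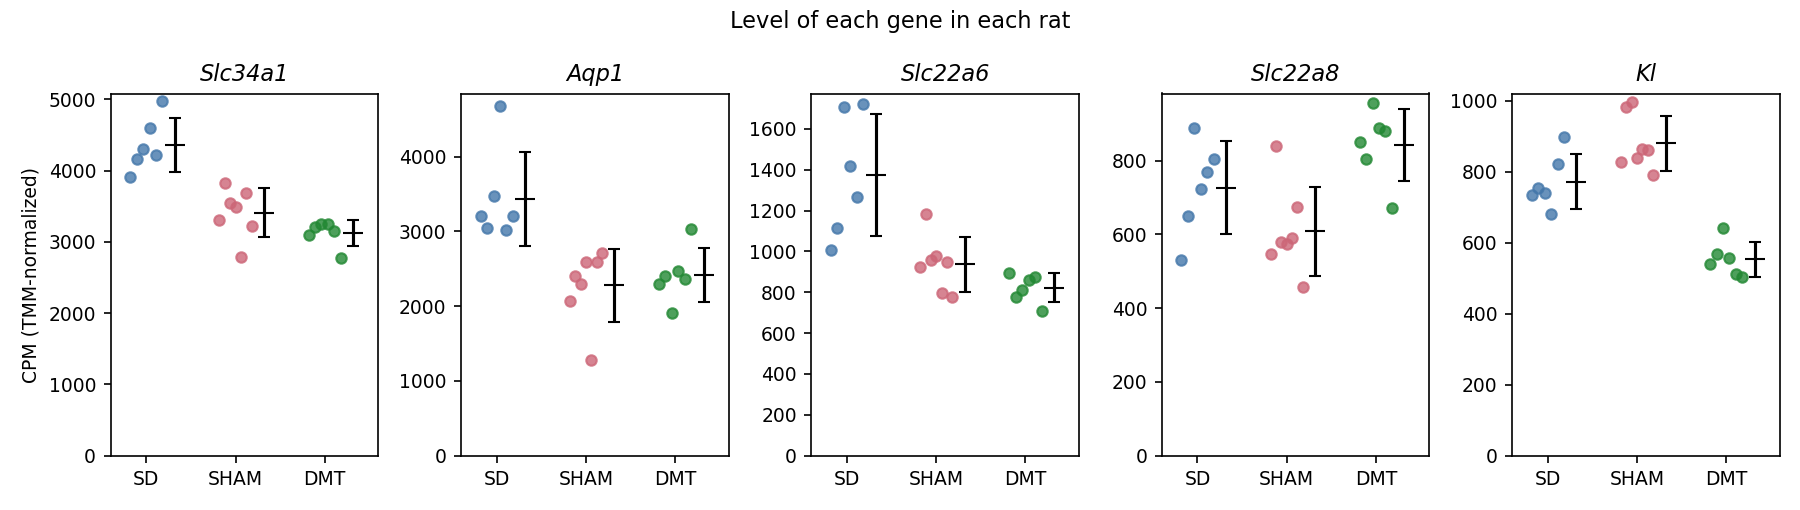
TMM-normalized CPM (y axis, from 0) of each gene (panels) in each rat (circles) of the SD (n=6), SHAM (n=7) and DMT (n=6) groups, with the mean and SD as black bars. All SD rats lie above all SHAM and DMT rats for Slc34a1, and all DMT rats lie below all others for Kl.

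Aqp1 (4:150203461-150215641 on the plus strand, 4 exons) was lower in both ZDSD groups than in SD rats. SD rats had 3017 to 4673 CPM (median 3204), SHAM rats 1274 to 2711 CPM (median 2398) and DMT-treated rats 1908 to 3030 CPM (median 2386). SHAM rats all lay below SD rats, and 5 of 6 DMT-treated rats did. SHAM and SD rats did not overlap for 8.61% of all genes tested. The highest SD value belonged to rat 355, the lowest SHAM value to rat 333 and the highest DMT value to rat 347. Mean ± SD was 3436 ± 628 CPM in SD rats, 2277 ± 492 CPM in SHAM rats and 2411 ± 362 CPM in DMT-treated rats. Aqp1 fell in SHAM vs SD by 0.59 on the log2 scale (SE 0.150, edgeR adjusted p=0.00528) and had a log2 fold-change of -0.51 in DMT vs SD (SE 0.156, edgeR adjusted p=0.0174). The DMT vs SD call was lost without SD rat 355 (log2 fold-change -0.41, edgeR adjusted p=0.0520). DMT vs SHAM gave 0.08 (95% confidence interval -0.23 to 0.40, edgeR adjusted p=0.743). It was 0.04 with libraries scaled to their totals alone and -0.01 without SHAM rat 333.

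The genes of OAT3 and OAT1 are neighbours on chromosome 1 of rn5. Slc22a8 occupies 1:231737019-231756334 (11 exons), and Slc22a6 begins 5278 bases downstream at 1:231761613-231770057 (10 exons), both on the plus strand. No other annotated gene overlapped either of them, nor any of the other 3 genes.

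Slc22a6, the gene of OAT1, fell in both ZDSD groups relative to SD rats. SD rats had 1007 to 1722 CPM (median 1343), SHAM rats 776 to 1182 CPM (median 947) and DMT-treated rats 707 to 896 CPM (median 835). All DMT-treated rats lay below all SD rats, and 6 of 7 SHAM rats did. DMT-treated and SD rats did not overlap for 16.9% of all genes tested. Mean ± SD was 1373 ± 299 CPM in SD rats, 937 ± 134 CPM in SHAM rats and 821 ± 70.8 CPM in DMT-treated rats. Slc22a6 fell in SHAM vs SD by 0.55 on the log2 scale (SE 0.121, edgeR adjusted p=0.00200), and DMT vs SD gave a log2 fold-change of -0.74 (SE 0.127, edgeR adjusted p=0.000203). DMT vs SHAM gave -0.19 (95% confidence interval -0.44 to 0.06, edgeR adjusted p=0.287).

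Slc22a8, the gene of OAT3, was the only gene of the set called higher in a comparison. SD rats had 530 to 888 CPM (median 746), SHAM rats 456 to 839 CPM (median 579) and DMT-treated rats 672 to 957 CPM (median 865). Above every SHAM rat lay 4 of the 6 DMT-treated rats, and SHAM rat 315 was the highest of its group. Mean ± SD was 727 ± 126 CPM in SD rats, 609 ± 120 CPM in SHAM rats and 842 ± 97.6 CPM in DMT-treated rats. DMT vs SHAM gave a 1.38-fold higher level (log2 fold-change 0.47, SE 0.127, edgeR adjusted p=0.0140), with a 95% confidence interval of 1.15 to 1.66-fold. SHAM vs SD gave -0.26 (95% confidence interval -0.52 to 0.01, edgeR adjusted p=0.122), or -0.12 with libraries scaled to their totals alone (edgeR adjusted p=0.431), and DMT vs SD gave 0.21 (-0.06 to 0.49, edgeR adjusted p=0.232).

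Because both transporters were measured in the same library, their ratio does not depend on how libraries were scaled. Each ratio is of counts per kilobase, tested on the log2 scale by a two-sided exact permutation test over rats, with p-values adjusted over 9 tests (3 ratios in 3 comparisons). The ratios were chosen with earlier results of these data known, so their p-values describe separation of the rats, not an independent test. Slc22a6 to Slc22a8 was 2.40 to 3.12 in SD rats (median 2.79), 1.97 to 2.48 in SHAM rats (median 2.41) and 1.24 to 1.54 in DMT-treated rats (median 1.43). The ratio of every DMT-treated rat lay below that of every SHAM and SD rat. The share of other gene pairs whose ratios separate groups in this way was not computed, so how unusual this is was not tested. Of single genes, 7.72% did not overlap in CPM between DMT-treated and SHAM rats, and 16.9% between DMT-treated and SD rats. DMT vs SHAM differed by -0.66 on the log2 scale (exact permutation p=0.00117, adjusted p=0.0035) and DMT vs SD by -0.94 (exact permutation p=0.00216, adjusted p=0.00487), and these are the smallest p-values that these group sizes can give. SHAM vs SD differed by -0.27 (exact permutation p=0.00932, adjusted p=0.0168).

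**Figure D3:**
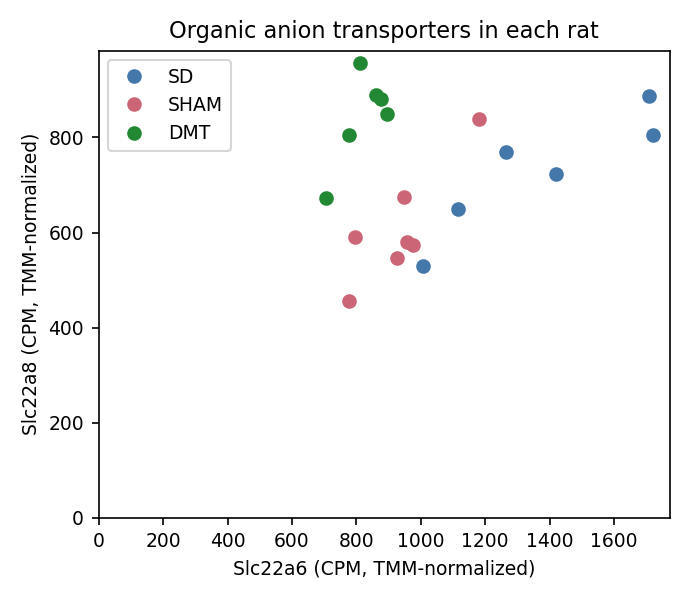
CPM of Slc22a8 (y axis) against Slc22a6 (x axis), both TMM-normalized and from 0, with 1 circle per rat coloured by group. All DMT rats lie to the left of all SD rats, at 707 to 896 CPM of Slc22a6, whereas on the Slc22a8 axis the groups overlap (672 to 957 CPM in DMT rats and 530 to 888 CPM in SD rats).

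Kl, the gene of Klotho (12:929158-972144 on the plus strand, 5 exons), was lowest in DMT-treated rats. SD rats had 682 to 899 CPM (median 747), SHAM rats 792 to 996 CPM (median 861) and DMT-treated rats 504 to 642 CPM (median 548). Every DMT-treated rat lay below every SHAM and every SD rat, whereas SHAM and SD rats overlapped. Groups did not overlap in CPM for 7.72% of all genes tested between DMT-treated and SHAM rats, for 8.61% between SHAM and SD rats and for 16.9% between DMT-treated and SD rats. Mean ± SD was 772 ± 77.0 CPM in SD rats, 880 ± 78.0 CPM in SHAM rats and 554 ± 49.9 CPM in DMT-treated rats. Kl fell in DMT vs SHAM by 0.67 on the log2 scale (SE 0.077, edgeR adjusted p=3.98e-06), a ratio of 0.629 with a 95% confidence interval of 0.563 to 0.702. DMT vs SD gave -0.48 (SE 0.079, edgeR adjusted p=0.00014). SHAM vs SD gave 0.19 (SE 0.076, 95% confidence interval 0.03 to 0.35, edgeR adjusted p=0.0588), a ratio of 1.14 that was under the 1.3-fold rule. With libraries scaled to their totals alone, SHAM vs SD for Kl was 0.32 (edgeR adjusted p=0.00508), still under that rule.

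The ratio of Kl to Slc34a1 in the same library differed in SHAM rats from both other groups. Kl to Slc34a1 was 0.102 to 0.135 in SD rats (median 0.125), 0.161 to 0.214 in SHAM rats (median 0.173) and 0.112 to 0.136 in DMT-treated rats (median 0.121). Every SHAM rat lay above every SD and every DMT-treated rat, and the share of other gene pairs that separate so was not computed. SHAM vs SD was 1.46-fold higher (log2 difference 0.55, exact permutation p=0.00117, adjusted p=0.0035), and DMT vs SHAM was -0.55 on the log2 scale (exact permutation p=0.00117, adjusted p=0.0035). DMT vs SD was 0.0002 (exact permutation p=1), Kl and Slc34a1 each having a log2 fold-change of -0.48 in that comparison. In SHAM vs SD the log2 fold-change was -0.35 for Slc34a1 and 0.19 for Kl, neither called. In DMT vs SHAM it was -0.13 for Slc34a1 and -0.67 for Kl. Aqp1 to Slc34a1, the ratio of the water channel to the phosphate transporter, gave no difference that passed adjustment in any of the 3 comparisons (exact permutation p=0.0967 for SHAM against SD, 0.185 for DMT against SHAM and 0.840 for DMT against SD). It averaged 0.733 ± 0.120 in SD rats, 0.616 ± 0.110 in SHAM rats and 0.724 ± 0.154 in DMT-treated rats.

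**Figure D4:**
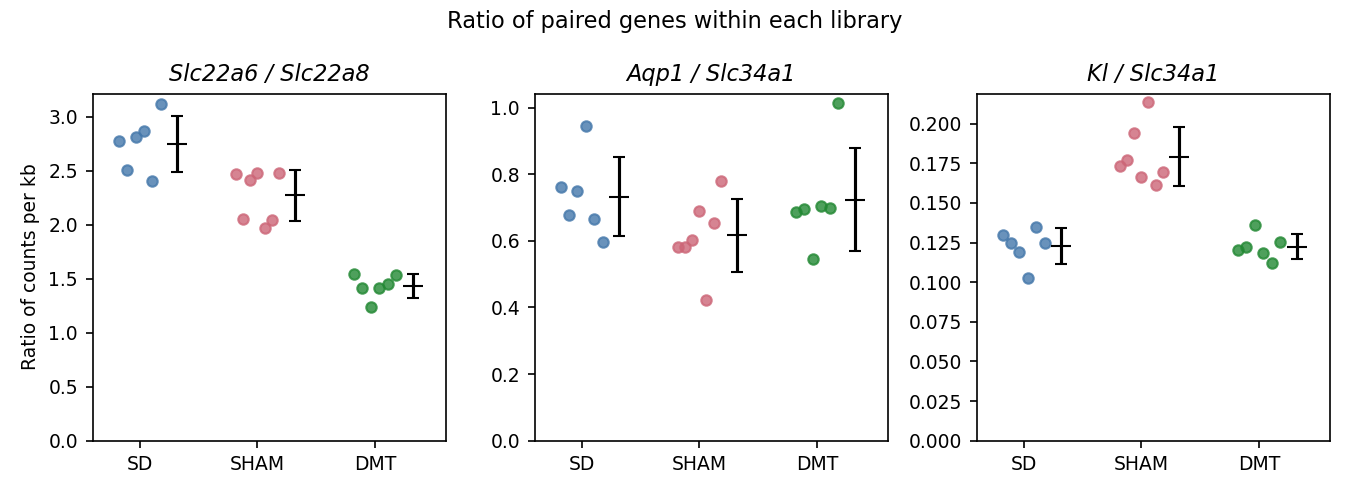
Ratio of counts per kb (y axis, from 0) of each pair of genes (panels) in each rat (circles) of the SD, SHAM and DMT groups, with the mean and SD as black bars. DMT rats sit at 1.24 to 1.54 for Slc22a6 to Slc22a8, below all others, and SHAM rats sit at 0.161 to 0.214 for Kl to Slc34a1, above all others.

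Summed as 1 sample, SHAM rats 343 and 348 had 3518 CPM of Slc34a1, 2624 of Aqp1, 1043 of Slc22a6, 657 of Slc22a8 and 780 of Kl. The exact Poisson 95% interval of Kl, 671 to 901 CPM from 184 counts, lay above the highest DMT-treated rat. It also held the mean of the SD rats (772 CPM), and the summed value lay below the lowest deeper SHAM rat (792 CPM). The intervals of Slc34a1, Slc22a6, Slc22a8 and Kl held the mean of the 7 deeper SHAM rats, and that of Aqp1, 2421 to 2839 CPM, lay above it. These intervals cover counting error only.

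Across the 19 rats, Slc34a1 and Slc22a6 varied together (Pearson r=0.92, Spearman rho=0.93 on log2 CPM), which made Slc34a1 the gene of 14663 others with the second highest r to Slc22a6. After the mean of each group was taken out, r was 0.75 (rho 0.73), and 0.72 without the 2 rats farthest from the median of Slc34a1. For this pair, r was 0.80 in SD, 0.82 in SHAM and 0.65 in DMT-treated rats, with rho of 0.94, 0.82 and only 0.086. Slc22a6 and Slc22a8 gave r=0.27 across all rats and 0.83 after group means were taken out (rho 0.69, and r 0.80 without the 2 farthest rats). Within each group r was 0.91 in SD, 0.83 in SHAM and 0.75 in DMT-treated rats, but rho was 0.89, 0.57 and 0.43. Slc22a8 and Kl gave -0.43 across all rats and 0.54 after group means were taken out (0.47 without the 2 farthest rats). For Aqp1 and Slc34a1, r after group means were taken out was 0.42, and 0.10 without the 2 farthest rats. Within groups, r was 0.35 in SD, 0.79 in SHAM and -0.79 in DMT-treated rats, but rho was only 0.31, 0.21 and -0.20. SHAM rat 333 was the lowest of its group for both genes. DMT rat 347 was the lowest of its group for Slc34a1 and the highest for Aqp1. The difference in sign may therefore rest on single rats. These values describe libraries that share their scaling, and groups that differ in level, and are not tests.

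By identifier, the gene most like Slc34a1 was ENSRNOG00000013925 (r=0.95), and that most like Kl was ENSRNOG00000015401 (r=0.94, and 0.57 after group means were taken out). Genes most like Slc22a8 were ENSRNOG00000017619 and ENSRNOG00000008432 (both r=0.88). In DMT vs SHAM, ENSRNOG00000013925 gave a log2 fold-change of -0.52 (edgeR adjusted p=0.0142) and ENSRNOG00000015401 one of -1.74 (edgeR adjusted p=1.01e-07). ENSRNOG00000017619 rose by 1.08 (edgeR adjusted p=3.89e-06) and ENSRNOG00000008432 by 0.83 (edgeR adjusted p=0.000193). These genes were picked by r over the same rats, so shifts like those of the members follow in part from the choice. Their p-values are not separate support. The files do not pair these identifiers with symbols. The nearest genes to Aqp1 and Slc22a6 reached r=0.95 and 0.94.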

How the data were processed

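The deposited values are raw counts of read pairs on the exons of 26404 Ensembl genes in each rat, without normalization. Per the study's methods and the file headers, reads were trimmed with Trim Galore (0.4.0) and Cutadapt (1.9), mapped to rn5 with STAR (2.5.2b) and counted by gene on the reverse strand with featureCounts (1.6.4), so reads from the opposite strand were not counted. Counted length is the merged length of a gene's exons, so levels per kb depend on that annotation.

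From these counts, filterByExpr of edgeR (4.0.16, R 4.3.3) kept 14664 genes at its defaults (minimum count 10, minimum total 15). Libraries were normalized by TMM, and a quasi-likelihood model was fitted to the 19 libraries of at least 1000000 counts, with all 3 groups in one fit. Adjusted p-values cover all genes tested. Standard errors and intervals come from the same fit. In these libraries 3 counts equal 0.109 to 0.207 CPM. The common biological coefficient of variation was 0.158. Ratios were tested with scipy (1.17.1) by exact permutation of rats, on counts per kb. The steps were tested on simulated data. Figures used matplotlib (3.10.9).

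The 5 genes, the ratios, the motifs and the lists of related genes were chosen with earlier results of these data known. The 5 genes were all named. For the genes most alike, those with the highest Pearson r of log2 CPM (prior count 2) over the 19 libraries were taken, and at most 2 rising and 2 falling identifiers are given. Of the 26404 identifiers, 0 matched a symbol in the reference table, so the lists of phosphate, organic ion, aquaporin, other proximal tubule, transcription factor, tubule injury and cell type genes were not analysed here. Promoter sequences are from RefSeq (GRCr8), matched by symbol for 4 of the 5 genes, of which the window of 3 ended at the start of the RefSeq gene span. rn5 and GRCr8 positions were not converted into each other. Alternatives were DESeq2 (1.42.0), other scaling and filters, other uses of the shallow libraries and of the fold-change rule, and leaving out each rat.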

Additional observations from a re-analysis of the deposited data

Results flagged for a closer look

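The CPM of each of the 5 genes, the 3 ratios and the total counts were examined in each of the 3 groups, 27 in all, for a rat far from the others, and 1.35 would be marked by chance at 1 in 20. Slc34a1 in DMT rat 347 was 2780 CPM, while the other DMT-treated rats had 3101 to 3256 CPM. In the same rat, Aqp1 to Slc34a1 was 1.01, while the others had 0.545 to 0.704. Aqp1 in SD rat 355 was 4673 CPM, while the other SD rats had 3017 to 3475 CPM. The cause was not tested in any of the 3 cases. Without rat 347, DMT vs SHAM for Aqp1 was 0.01 in place of 0.08.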

How the results depend on the processing

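Of 132 member fold-changes recomputed with another test, scaling, filter, set of samples or use of the shallow libraries, 132 kept their direction and side of the call. The other fold-change rules given below were not applied to the members in this count. By adjusted p alone, Slc34a1 in SHAM vs SD would be called (edgeR adjusted p=0.00223). Among the calls, only Kl in DMT vs SHAM (ratio 0.563 to 0.702) and Slc22a6 in DMT vs SD (0.498 to 0.719) had 95% confidence intervals wholly beyond 1.3-fold. The intervals of the other calls reached inside 1.3-fold, such as that of Slc22a8 in DMT vs SHAM (1.15 to 1.66-fold). Leaving out each rat in turn, 281 kept direction and side of the call and 4 did not. These 4 concern Slc34a1 in SHAM vs SD (-0.38 to -0.31), which passed the call without SD rat 352 or SHAM rat 315, Aqp1 in DMT vs SD (-0.59 to -0.41), whose call was lost without SD rat 355, and Aqp1 in DMT vs SHAM (-0.0132 to 0.142), which turned without SHAM rat 333. The ratio Aqp1 to Slc34a1 ranged from -0.130 to 0.0488 in DMT vs SD and from -0.32 to -0.17 in SHAM vs SD, where it passed an adjusted p of 0.05 without SHAM rat 340 (adjusted exact permutation p=0.0455). The ratio Kl to Slc34a1 in DMT vs SD ranged from -0.0507 to 0.0286 and turned sign, around a value near 0.

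The number of genes called depended on the fold-change rule. In DMT vs SHAM it was 1684, with 2975 by adjusted p alone and 461 by a test of the fold-change in the model (glmTreat). In SHAM vs SD it was 2681, with 5131 and 810, and in DMT vs SD 2663, with 4682 and 1091. Library totals in place of TMM moved the median of all genes in SHAM vs SD by 0.13, and the genes called went from 1515 higher and 1166 lower to 2484 and 745. In DMT vs SD they went from 1174 higher and 1489 lower to 1597 and 1182, and in DMT vs SHAM from 604 and 1080 to 483 and 1276. Kl in SHAM vs SD ranged from 0.16 to 0.32, with edgeR or DESeq2 adjusted p of 0.00508 to 0.119 over the alternatives other than leaving out 1 rat. No paired analysis was possible because each rat number occurs in 1 group. Depth limits the SHAM rats left out, where 3 counts equal up to 29.5 CPM.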
